A study of Mus musculus with 6 samples.

Results

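Testis RNA was sequenced from recipients of a fecal microbiota transplant, and the 86 microRNA genes described here are those of the 2207 genes annotated as microRNA that were chosen by level, with a mean of at least 1 FPKM over all 6 libraries. The table holds 54532 genes. FPKM is the number of sequenced fragments on a gene, scaled to its length and to the fragments of the library. The alcohol-FMT group was C57BL/6 male mice given, by gavage, fecal microbiota of donors that drank 10% ethanol, and the control-FMT group was the same kind of mouse given microbiota of donors that drank no ethanol. All recipients arrived at 3 weeks of age, shared cages for 2 weeks, drank plain water and were gavaged 3 times a week for 10 weeks. The donors drank for 8 weeks according to the sample labels and for 10 weeks according to the published methods. Of the 5 recipients in each group, 3 testis samples were sequenced, numbered 18, 24 and 31 in the alcohol-FMT group and 16, 19 and 21 in the control-FMT group, and values for the libraries are given in that order throughout. In the study's supplement each number is the identifier of an individual mouse, so the libraries of a group are separate animals. The samples are whole testis, so fewer cells of a type and less RNA per cell cannot be told apart.

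MicroRNAs are short RNAs that pair through their seed with messenger RNAs and lower the stability or translation of those messages. They are cut from hairpins, first by Drosha and Dgcr8 in the nucleus and then by Dicer1 in the cytoplasm, and many hairpins lie in introns of other genes, whose transcripts carry them. In the testis, loss of Dicer1 in germ cells or in Sertoli cells is known to disrupt spermatogenesis in mice, and the mir-34 and mir-449 families are abundant in meiotic and later germ cells.

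A mature microRNA is too short for the kit used here, an Illumina TruSeq RNA preparation with library cDNA of 150 bases on average. The 86 genes were 51 to 139 bases long (median 81.5), and none was 150 bases or longer. Their values therefore count fragments of longer RNA that were assigned to the hairpin locus and are not a measure of the mature microRNA.

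The sequences below are those on which the results turn. The first is the 57-base transcript of the most read gene, Gm23935 (chr16:11144125-11144181, plus strand), which Gm24270 (chr9:56223715-56223771, minus strand) shares base for base. The next 5 belong to a family of 110-base genes: Gm25649 (chr13:62013035-62013144, minus strand) is identical to Gm24752 (chr7:4393011-4393120, minus strand), and Gm25144 (chr3:5885595-5885704, plus strand) is identical to its neighbour Gm25352 (chr3:5881041-5881150, plus strand). In these, capitals mark the bases that differ from Gm25649. Transcript sequences and coordinates are from GENCODE M21 on GRCm38, in which all 86 genes lie at the coordinates that the table gives.
Gm23935 and Gm24270: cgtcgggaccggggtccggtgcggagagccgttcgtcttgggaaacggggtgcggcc
Gm25649 and Gm24752: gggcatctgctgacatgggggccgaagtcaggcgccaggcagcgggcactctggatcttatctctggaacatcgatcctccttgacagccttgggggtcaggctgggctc
Gm23689: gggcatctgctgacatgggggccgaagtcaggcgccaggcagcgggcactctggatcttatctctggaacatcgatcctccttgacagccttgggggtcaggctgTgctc
Gm27785: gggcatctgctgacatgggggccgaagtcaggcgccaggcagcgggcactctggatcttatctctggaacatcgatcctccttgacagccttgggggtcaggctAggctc
Gm22918: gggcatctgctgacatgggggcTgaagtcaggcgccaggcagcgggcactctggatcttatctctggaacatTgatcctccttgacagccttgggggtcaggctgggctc
Gm25144 and Gm25352: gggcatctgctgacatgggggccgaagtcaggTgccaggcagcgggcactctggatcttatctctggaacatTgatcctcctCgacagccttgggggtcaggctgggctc

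RefSeq (GRCm38.p6) listed mature sequences for 47 of the 86 genes, 72 in all. The ones shown are of the named genes with a small p-value or an assigned family, to let their seeds be compared, and the capitals mark the seed (bases 2 to 8). The 72 mature sequences held 70 different seeds. Only 2 seeds occurred more than once, in the pair miR-132-3p and miR-212-3p and in the pair miR-200a-5p and miR-200b-5p, each encoded by neighbouring hairpins. The 34 genes with Gm symbols are predicted genes with no mature product named.
miR-132-3p: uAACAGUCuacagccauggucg
miR-212-3p: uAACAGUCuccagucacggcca
miR-200a-5p: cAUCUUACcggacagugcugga
miR-200b-5p: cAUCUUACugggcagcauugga
miR-200a-3p: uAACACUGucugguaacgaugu
miR-200b-3p: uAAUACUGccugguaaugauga
miR-34b-5p: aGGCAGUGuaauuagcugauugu
miR-5125: uCUGCCUGggauuuccuugu
miR-1898: aGGUCAAGguucacaggggauc
miR-3473d: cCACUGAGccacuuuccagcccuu

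Few microRNA genes were read at all, and a single gene held most of the fragments. Of the 2207 genes, 1784 had no fragment in any library and 423 had at least 1. The 86 genes carried 20132 of the 20992 fragments on microRNA genes, 73.6% of them on Gm23935 and 88.1% on the 12 most read genes. The median of the 86 was 23.5 fragments over all libraries and the lowest was 8. At a length of 80 bases, 1 fragment is worth about 0.703 FPKM, so the minimum of 1 FPKM corresponded to 1.45 fragments per library at the median length. Of the 86 genes, 54 were read in every library, 35 had at least 30 fragments and 17 had at least 100. The genes were selected on these levels, which are given as a description. Just above the minimum were Mir343 at 1.001 FPKM, Mir8099-2 at 1.01 FPKM and Mir3108 at 1.06 FPKM, and just below it Mir339 at 0.978 FPKM, Mir8094 at 0.977 FPKM and Mir7647 at 0.937 FPKM.

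The libraries held 17167372 to 18633124 fragments on genes in the alcohol-FMT group and 16504096 to 18045951 in the control-FMT group. Germ cell, Sertoli cell and Leydig cell markers were present in all libraries (9 of 10, 8 of 8 and 6 of 6 with a mean of at least 1 FPKM). The summed level of 8 epididymis markers was 14.7 FPKM in alcohol-FMT library 31 and 0.961 to 1.99 FPKM in the other 5 libraries. Blood markers summed to 13.0, 15.3 and 20.8 FPKM in the alcohol-FMT libraries, against 23.0, 21.4 and 20.3 FPKM in the control-FMT libraries, and 6 Leydig cell markers to 290, 406 and 322 FPKM, against 466, 358 and 412 FPKM. Both overlapped between the groups and were lowest in library 18. The part of these cells in the values of the microRNA genes was not tested.

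Gm23935, annotated as a predicted microRNA gene, set the total. It had 623, 2817 and 2660 fragments in the alcohol-FMT libraries, against 2775, 4770 and 1181 in the control-FMT libraries. The lowest value was that of alcohol-FMT library 18 and the highest that of control-FMT library 19, while the other libraries of the groups overlapped. Mean levels were 1947 ± 1126 FPKM in the alcohol-FMT group and 2861 ± 1731 FPKM in the control-FMT group (SD, n = 3 each). The log2 difference, on the scale of log2(FPKM + 1) and with the standard error of the limma fit, was -0.60 ± 0.66. Its adjusted p was 0.877.

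All 86 genes together had 73.6, 209 and 194 fragments per 1000000 gene fragments in the alcohol-FMT libraries, against 210, 318 and 120 in the control-FMT libraries. Without Gm23935 the values were much closer, at 37.3, 54.7 and 51.7 in the alcohol-FMT libraries, against 52.3, 54.0 and 48.7 in the control-FMT libraries. Library 18 stood below the rest then. Its exact (Clopper-Pearson) 95% interval was 34.4 to 40.3 on this scale, which covers counting error only. Outside the 86 genes, the fragments on microRNA genes numbered 100, 135 and 120 in the alcohol-FMT libraries, against 173, 171 and 161 in the control-FMT libraries. The microRNA genes with any fragment numbered 143, 166 and 167 in the alcohol-FMT libraries, against 192, 188 and 186 in the control-FMT libraries. In both of these counts every alcohol-FMT library was the lower, also without library 18. Over all genes of the table, 28444, 29174 and 29179 had a fragment in the alcohol-FMT libraries, against 29201, 29480 and 29189 in the control-FMT libraries, which is apart in the same direction by small margins. Other small RNA genes also had lower means in the alcohol-FMT group, per 1000000 gene fragments. Small nuclear RNA genes had 16.6 against 20.3 and small nucleolar RNA genes 16.4 against 19.8. For both, the libraries overlapped between the groups.

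Genes annotated as ribosomal RNA had 287, 196 and 195 fragments per 1000000 gene fragments in the alcohol-FMT libraries, against 180, 441 and 178 in the control-FMT libraries. Library 19 was highest in both these genes and Gm23935, whereas library 18 was second highest in ribosomal RNA and lowest in Gm23935. The sequence shared by Gm23935 and Gm24270 was not compared with the whole ribosomal RNA sequence. The part of ribosomal RNA in the values of these genes was not tested.

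**Figure D1:**
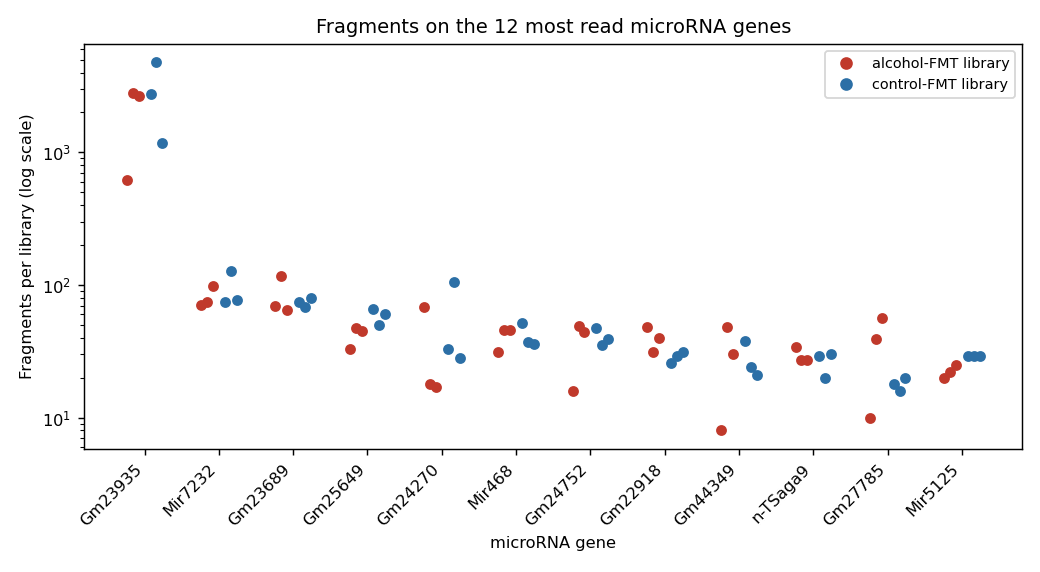
Fragments per library on the 12 microRNA genes with most fragments, on a log scale, with alcohol-FMT libraries at the left of each gene and control-FMT libraries at the right. Gm23935 lies above all others, with 623 to 4770 fragments, and the libraries of the groups are apart only for Gm25649 and Mir5125.

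The most read genes with a named mature microRNA were Mir7232 and Mir468, whose hairpins lie 935 bases apart on chromosome 6 and overlap no gene of another kind. Mir7232 had 71, 74 and 99 fragments in the alcohol-FMT libraries, against 75, 127 and 77 in the control-FMT libraries. Mir468 had 31, 46 and 46 fragments in the alcohol-FMT libraries, against 52, 37 and 36 in the control-FMT libraries. Both genes overlapped between the groups, with log2 differences of -0.19 ± 0.21 and -0.05 ± 0.16. The nearest gene with a mean of at least 1 FPKM was 1700097M23Rik, 251 bases from Mir7232 on the same strand, at 47.3 FPKM.

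Among the other well-read genes, n-TSaga9 and Gm44349 coincide with RNA of another kind. The description of n-TSaga9 in the table is a nuclear-encoded serine transfer RNA, the adaptor that brings serine to the ribosome. It had 34, 27 and 27 fragments in the alcohol-FMT libraries, against 29, 20 and 30 in the control-FMT libraries, and the groups overlapped. Gm44349 lies opposite an exon of Elp5, a subunit of the Elongator complex that modifies transfer RNA. It had 8, 48 and 30 fragments in the alcohol-FMT libraries, against 38, 24 and 21 in the control-FMT libraries, with library 18 lowest again. Elp5 itself was at 71.2 ± 6.58 FPKM in the alcohol-FMT group and 67.7 ± 4.36 FPKM in the control-FMT group (SD, n = 3 each). Strand handling is not given in the sources used here, so reads of Elp5 and of Gm44349 cannot be told apart.

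In the comparison of the groups, no microRNA gene passed after adjustment over the 15206 genes tested, and 11 of the 86 had an unadjusted p of 0.05 or less. The smallest adjusted p of the 86 was 0.540 by limma, and over all genes tested it was 0.180, so that 0 of the 15206 genes (0.0%) passed an adjusted p of 0.05. At the unadjusted threshold 2 genes were higher in the alcohol-FMT group (2.33% of the 86, against 4.93% of all genes tested) and 9 were lower (10.5%, against 2.34%), which makes 12.8% against 7.27% in all. Of these 11, 5 reached a mean of 1 FPKM in only one of the groups and so entered the list through the group where they were high, and 7 had under 30 fragments in all. Over the whole list, 10 genes reached the minimum in the control-FMT group alone and 1 in the alcohol-FMT group alone. The counts are therefore a description and not support for a direction. The limma-voom fit on the recovered fragments gave 0 higher and 5 lower, all of them among the 11 (Gm25144, Gm26115, Mir1898, Gm25649 and Mir3093). It used the same libraries and the same list, and its share over all genes is not given. Its counts are therefore not support for a direction either.

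The groups were apart with alcohol-FMT on top for 1 of the 86 genes (1.16%, against 7.76% of all genes tested) and with alcohol-FMT at the bottom for 7 (8.14%, against 5.33%). The median log2 difference of the 86 was -0.20, with 0.01 over all genes tested, and 55 of the 86 values (64.0%) were below 0, with 47.5% over all genes tested. Library 18 was often the lowest. Among the 35 microRNA genes with at least 30 fragments, 17 (48.6%) were lowest in library 18, which was lowest for 21.8% of all genes tested and for 23.2% of the 3459 other genes with at least 30 and under 600 fragments. Without library 18 the median of the microRNA genes was 0.06. Leaving out the library of the alcohol-FMT group that was most often lowest raises this median in any case. The cause of the tilt was not tested.

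**Figure D2:**
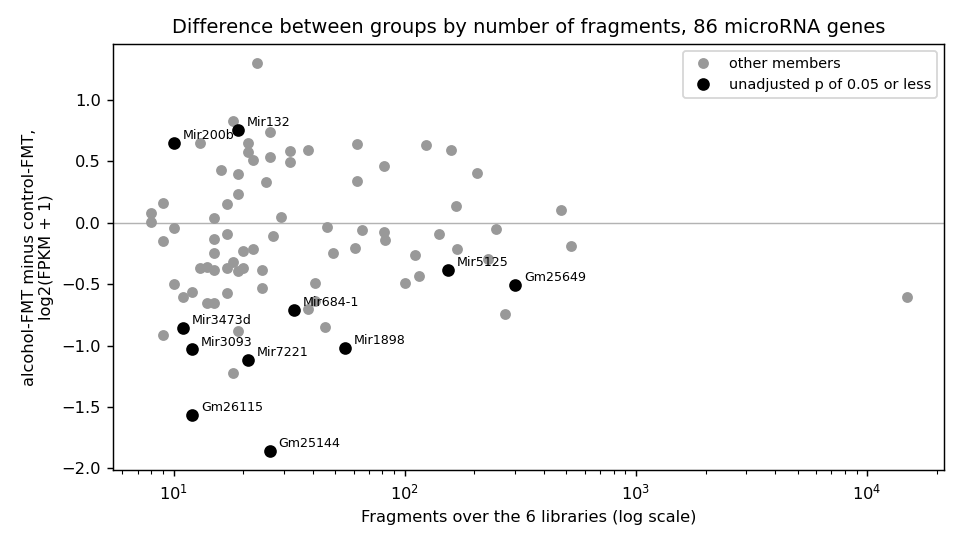
Log2 difference between the groups, alcohol-FMT minus control-FMT on the scale of log2(FPKM + 1), against the fragments over the 6 libraries on a log scale, for the 86 microRNA genes. The values lie between -1.86 and 1.30 and spread most at low fragment numbers, and the 11 genes at an unadjusted p of 0.05 or less are named.

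The 4 genes among the 11 with at least 30 fragments were all lower in the alcohol-FMT group. The first, Mir5125 (chr17:23823291-23823369), has no near copy among the annotated transcripts. It had 20, 22 and 25 fragments in the alcohol-FMT libraries, against 29, 29 and 29 in the control-FMT libraries. The groups did not overlap, although the closest libraries were 4 fragments apart. Levels were 15.7 ± 1.30 FPKM in the alcohol-FMT group and 20.8 ± 0.745 FPKM in the control-FMT group (SD, n = 3 each), a log2 difference of -0.38 ± 0.08. The limma fit gave an unadjusted p of 0.0016 and an adjusted p of 0.540, and limma-voom gave an unadjusted p of 0.151.

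Mir5125 lies in an intron of Srrm2, on the same strand. Srrm2 codes for a large splicing protein of nuclear speckles. It had 25.0, 21.4 and 20.8 FPKM in the alcohol-FMT libraries, against 25.6, 26.7 and 26.6 FPKM in the control-FMT libraries. All alcohol-FMT values of the host were below the control-FMT values too, by a small margin in library 18. The log2 difference of Srrm2 was -0.23 ± 0.08, with an adjusted p of 0.674 by limma.

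Mir1898 (chr15:12171492-12171574) lies in an intron of Zfr, which codes for a zinc finger RNA-binding protein. It had 7, 4 and 6 fragments in the alcohol-FMT libraries, against 12, 11 and 15 in the control-FMT libraries. The groups did not overlap. Levels were 3.84 ± 1.21 FPKM in the alcohol-FMT group and 8.68 ± 1.74 FPKM in the control-FMT group (SD, n = 3 each), a log2 difference of -1.02 ± 0.21 with an adjusted p of 0.540. The host Zfr was at 29.6 ± 5.67 FPKM in the alcohol-FMT group and 31.2 ± 3.17 FPKM in the control-FMT group (SD, n = 3 each), a log2 difference of -0.08 ± 0.14.

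Mir684-1 had 2, 4 and 6 fragments in the alcohol-FMT libraries, against 6, 7 and 8 in the control-FMT libraries, and only library 31 reached the lowest control-FMT library in fragments. In FPKM the groups were apart, at 3.80 FPKM in library 31 against 3.85 FPKM in library 16. The log2 difference was -0.71 ± 0.25 with an adjusted p of 0.672. The Mir684-1 transcript matched a transcript of Sumo2, which codes for a ubiquitin-like modifier, at 100% identity, so fragments of the 2 genes cannot be told apart.

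The fourth gene, Gm25649, belongs to the 110-base family. It had 33, 47 and 45 fragments in the alcohol-FMT libraries, against 66, 50 and 60 in the control-FMT libraries. The groups did not overlap, and the levels were 21.0 ± 2.80 FPKM in the alcohol-FMT group and 30.2 ± 4.23 FPKM in the control-FMT group (SD, n = 3 each). The log2 difference was -0.50 ± 0.13, with an adjusted p of 0.595.

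Other genes have the same sequence as Gm25649. Gm24752, with the same 110 bases, had 16, 49 and 44 fragments in the alcohol-FMT libraries, against 47, 35 and 39 in the control-FMT libraries, and the groups overlapped. Its log2 difference was -0.30 ± 0.34, in the same direction as that of Gm25649, and the difference between these genes was not tested. In all, 16 microRNA genes of the table share this sequence and 10 of them had a fragment. Their sum was 55, 105 and 97 fragments in the alcohol-FMT libraries, against 118, 91 and 111 in the control-FMT libraries. The sum was 257 fragments in the alcohol-FMT group and 320 in the control-FMT group, and over it the libraries overlapped, with library 18 lowest. How reads that fit several places were assigned is not given in the sources used here.

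Gm25144, the gene with the smallest p of the 86, stands in the same situation. It had 0, 0 and 3 fragments in the alcohol-FMT libraries, against 9, 8 and 6 in the control-FMT libraries, and the groups did not overlap. The log2 difference was -1.86 ± 0.35, with an unadjusted p of 0.0010 and an adjusted p of 0.540. Its identical neighbour Gm25352, 4444 bases away, had 4, 21 and 32 fragments in the alcohol-FMT libraries, against 17, 14 and 23 in the control-FMT libraries. The pair summed to 4, 21 and 35 fragments in the alcohol-FMT libraries, against 26, 22 and 29 in the control-FMT libraries, so that library 31 was the highest of all and library 18 the lowest.

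**Figure D3:**
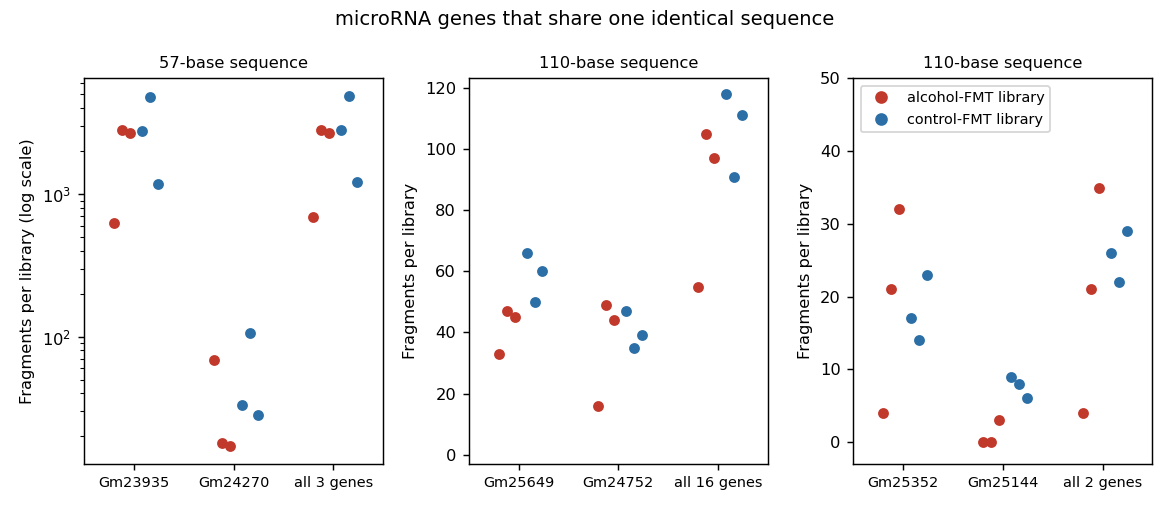
Fragments per library on pairs of microRNA genes with identical sequence and on all microRNA genes that share the sequence, with alcohol-FMT libraries at the left of each gene and control-FMT libraries at the right; the panel of the 57-base sequence has a log axis. Gm25649 and Gm25144 are apart between the groups, and the sums of the genes that share their sequences overlap.

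Such copies are frequent among the microRNA genes read here. Of the 86 genes, 25 have a near copy among the annotated transcripts (at least 90% identity over at least 90% of the length), 20 of them at least 5, and 17 are identical over their whole length to another microRNA gene. For all 10 sets of identical genes the summed fragments overlapped between the groups. Without the 25 genes with a near copy, 8 of 61 genes (13.1%) were at an unadjusted p of 0.05 or less, against 7.27% of all genes tested. Among these 8, Mir3093, Gm26115 and Mir3473d reached 1 FPKM in the control-FMT group alone and Mir200b in the alcohol-FMT group alone. The share is therefore a description.

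The 110-base family of Gm25649, built by linking near copies, comprised 98 microRNA genes, and 91 of these were 110 bases long. Of the 98 genes, 36 had a fragment and 14 were among the 86. It held 206, 381 and 362 fragments in the alcohol-FMT libraries, against 332, 282 and 328 in the control-FMT libraries. Library 18 was the lowest and library 24 the highest, so the groups overlapped. The 14 genes were 91.3 to 100% identical to one another where they aligned, and 8 of them were lowest in library 18. Of the 14, 7 had a log2 difference below 0, and the median was -0.11.

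Several genes of this family differ by only a few bases. Gm23689, which differs from Gm25649 at 1 base, had 70, 117 and 65 fragments in the alcohol-FMT libraries, against 75, 68 and 80 in the control-FMT libraries. Gm27785, which also differs at 1 base, had 10, 39 and 56 fragments in the alcohol-FMT libraries, against 18, 16 and 20 in the control-FMT libraries. Gm22918, which differs at 2 bases, had 48, 31 and 40 fragments in the alcohol-FMT libraries, against 26, 29 and 31 in the control-FMT libraries. The groups overlapped in FPKM for all 3 genes, and the log2 differences were 0.10 ± 0.20 for Gm23689, 0.59 ± 0.50 for Gm27785 and 0.40 ± 0.18 for Gm22918. Library 18 was lowest for Gm27785 and highest for Gm22918. These genes have identical copies as well. Gm22918 is identical to Gm25287, 4643 bases away. That pair summed to 52, 33 and 50 fragments in the alcohol-FMT libraries, against 31, 33 and 35 in the control-FMT libraries. Gm23689 belongs to a set of 2 identical genes and Gm27785 to a set of 4.

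The identical pair Gm23935 and Gm24270 differed in level. Gm24270 had 68, 18 and 17 fragments in the alcohol-FMT libraries, against 33, 106 and 28 in the control-FMT libraries. Library 18 was thus the second highest for Gm24270 and the lowest for Gm23935, although the sequences are the same. Levels of Gm24270 were 34.6 ± 31.3 FPKM in the alcohol-FMT group and 54.9 ± 42.4 FPKM in the control-FMT group (SD, n = 3 each), with an adjusted p of 0.852. Another gene with this sequence, Gm24245, was listed at 0 in every library.

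The higher genes were Mir200b and Mir132, both among the few members of well-known families. Mir200b belongs to the mir-200 family, which keeps the epithelial state by repressing Zeb1 and Zeb2. It had 3, 2 and 2 fragments in the alcohol-FMT libraries, against 1, 1 and 1 in the control-FMT libraries. The groups did not overlap, but the whole gene rests on 10 fragments. Levels were 1.88 ± 0.576 FPKM in the alcohol-FMT group and 0.810 ± 0.0290 FPKM in the control-FMT group (SD, n = 3 each), a log2 difference of 0.65 ± 0.14. The limma fit gave an unadjusted p of 0.0025 and an adjusted p of 0.549, and limma-voom gave an unadjusted p of 0.194.

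Mir200a, 695 bases from Mir200b, had 7, 5 and 2 fragments in the alcohol-FMT libraries, against 4, 2 and 1 in the control-FMT libraries. The groups overlapped, and the log2 difference was 0.65 ± 0.38. Both hairpins lie in an intron of Ttll10, which codes for an enzyme that adds glycine to proteins. Ttll10 had 112 ± 3.56 FPKM in the alcohol-FMT group and 108 ± 1.20 FPKM in the control-FMT group (SD, n = 3 each), a log2 difference of 0.05 ± 0.06. The mir-200 family has 5 genes in the table, and these 2 were the ones with a fragment.

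Mir132 and Mir212 are neighbouring hairpins, 203 bases apart on chromosome 11, and are known in neurons as targets of the activity-dependent factor CREB. Mir132 had 3, 3 and 7 fragments in the alcohol-FMT libraries, against 3, 2 and 1 in the control-FMT libraries. The groups touched at 3 fragments, and the log2 difference was 0.76 ± 0.31 with an adjusted p of 0.687. Mir212 had 1, 1 and 4 fragments in the alcohol-FMT libraries, against 7, 2 and 0 in the control-FMT libraries, a log2 difference of -0.13 ± 0.59. The difference between the neighbours was not tested. Both lie in an intron of the noncoding gene 1700016P03Rik, which had 0.825, 1.62 and 1.70 FPKM in the alcohol-FMT libraries, against 0.768, 0.841 and 0.820 FPKM in the control-FMT libraries. Library 18 lay among the control-FMT values of this host, and its log2 difference was 0.37 ± 0.16 with an adjusted p of 0.687.

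The other 4 genes at an unadjusted p of 0.05 or less were lower and rested on 11 to 21 fragments. Gm26115 had no fragment in any alcohol-FMT library, against 2, 9 and 1 fragments in the control-FMT libraries. Set against a floor of 3 fragments over the group, it was at least 4.07-fold lower in the alcohol-FMT group. Of its 12 fragments 9 were those of control-FMT library 19, and without that library 3 are left in the control-FMT group, which is the floor itself, so that no fold can be given. Library 19 had the highest values of Gm23935 and Gm24270 as well. Mir3473d, in an intron of the RNA helicase gene Ddx19b, had 0, 2 and 1 fragments in the alcohol-FMT libraries, against 3, 3 and 2 in the control-FMT libraries. Mir3093 had 0, 0 and 3 fragments in the alcohol-FMT libraries, against 2, 4 and 3 in the control-FMT libraries. Mir7221 had 3, 1 and 1 fragments in the alcohol-FMT libraries, against 6, 2 and 8 in the control-FMT libraries. The last 2 overlapped between the groups, and the adjusted p of these 4 genes lay between 0.600 and 0.685. Mir7222, 2324 bases from Mir7221 on the same strand, had 6, 26 and 18 fragments in the alcohol-FMT libraries, against 15, 8 and 8 in the control-FMT libraries, and the difference between these neighbours was not tested.

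**Figure D4:**
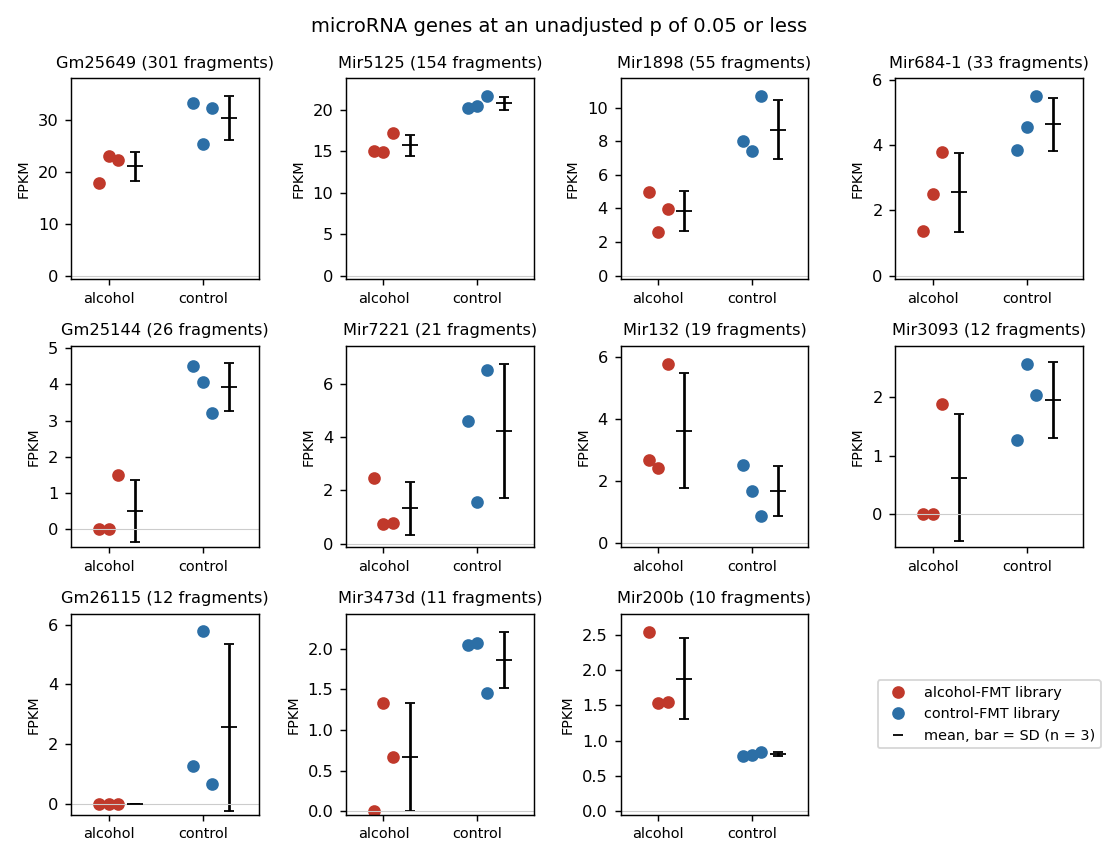
FPKM of the 11 microRNA genes at an unadjusted p of 0.05 or less, ordered by their fragments over all libraries, with a point for each library and the mean with its SD (n = 3) beside them. The alcohol-FMT mean is higher for 2 genes (Mir132 and Mir200b) and lower for 9, the libraries of the groups overlap for Mir132, Mir3093 and Mir7221, and the lower 7 panels rest on 10 to 26 fragments each.

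Of the 11 genes, 6 kept an unadjusted p of 0.05 or less in each fit that left out a library: Gm25649, Mir5125, Mir1898, Gm25144, Mir200b and Gm26115, which without library 19 was under the minimum level and had 5 such fits in place of 6. All 11 were chosen for a small p in these same libraries, so keeping it says nothing about stability. The share of all genes at this threshold that kept it is not given. Of these 6, Gm25144 and Gm26115 moreover reached 1 FPKM in the control-FMT group alone and Mir200b in the alcohol-FMT group alone. Mir684-1, Mir7221, Mir132, Mir3093 and Mir3473d lost it in at least one of these fits. Leaving out library 31, the only alcohol-FMT library with fragments of Gm25144, set that group to 0 and gave this gene an adjusted p of 0.0272, which follows from the choice of the gene and of the library.

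Most of the microRNA genes lie within other genes. In all, 38 of the 86 lie in an intron of a gene on the same strand, 5 overlap an exon of such a gene, 16 lie in an intron and 1 at an exon of a gene on the opposite strand only, and 26 overlap no gene of another kind. The first class held 1771 fragments and the opposite-strand introns 15569, most of them from Gm23935, which lies opposite an intron of the zinc finger gene Zc3h7a. Of the 11 genes at an unadjusted p of 0.05 or less, 7 lie in same-strand introns (18.4% of that class), 2 in opposite-strand introns (12.5%) and 2 outside genes (7.69%), against 7.27% of all genes tested. These classes hold few genes, and the shares are a description.

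Within the list, levels of microRNA genes and of their hosts showed no relation in rank. For the 43 genes with a host on the same strand the median was 2.19 FPKM, against 6.07 FPKM for the hosts, and 27 lay below and 16 above their host. Over these 43 pairs Spearman's rho between the mean levels was -0.02, as a description, since the pairs share libraries and 2 pairs of microRNA genes share a host. The microRNA genes were also chosen by this same level, so rho cannot show how levels relate among microRNA genes in general. Gm25649 and Gm24752 lay far above their hosts: Gm48228, host of Gm25649, was listed at 0 in every library, and Gp6, host of Gm24752 and the gene of a platelet collagen receptor, had 0.0762 ± 0.0228 FPKM in the alcohol-FMT group and 0.0412 ± 0.0188 FPKM in the control-FMT group (SD, n = 3 each). Mir200a and Mir200b lay far below Ttll10. Among genes well known for their mature product, Mir7-1 had 4.39, 1.99 and 1.01 FPKM in the alcohol-FMT libraries, against 4.60, 4.13 and 3.82 FPKM in the control-FMT libraries, in an intron of Hnrnpk, an RNA-binding protein gene with a mean of 40.3 FPKM. Mir186 had 2.51, 3.78 and 7.67 FPKM in the alcohol-FMT libraries, against 6.22, 0 and 4.99 FPKM in the control-FMT libraries, in an intron of the splicing factor gene Zranb2 with a mean of 11.7 FPKM. Both overlapped between the groups.

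**Figure D5:**
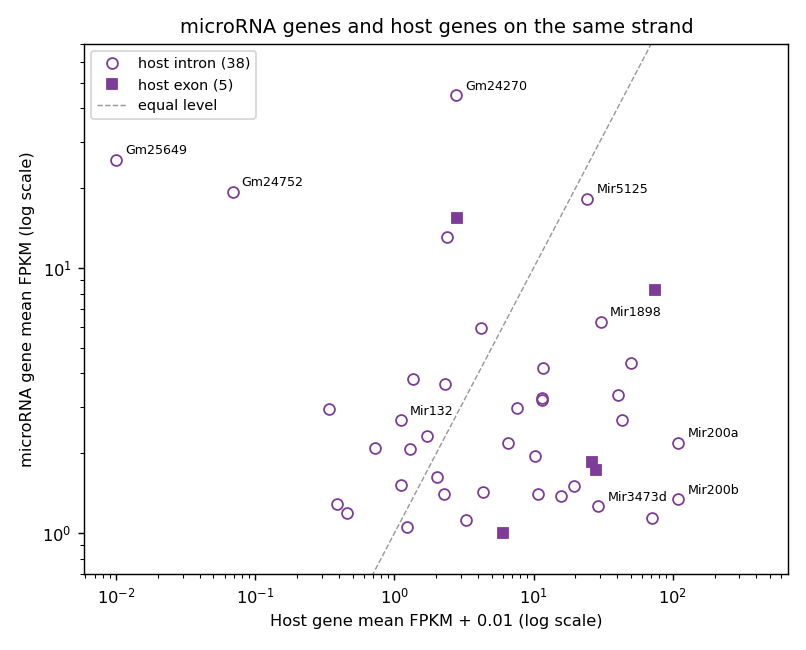
Mean FPKM over the 6 libraries of the 43 microRNA genes with a host gene on the same strand, against the mean FPKM of the host plus 0.01, both on log scales; circles lie in introns (38) and squares overlap an exon (5), and the dashed line marks equal levels. Of these genes 16 lie above the line and 27 below it, with Gm25649 and Gm24752 at the far left and Mir200a and Mir200b near the far right.

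Of the 43 pairs, 37 had a host that was tested, and 7 of these pairs had a host at an unadjusted p of 0.05 or less. The hosts were 1700016P03Rik, counted for both Mir132 and Mir212, Srrm2, Zkscan3, Prrc2c, Gm10505 and AC125141.2. Of all genes tested, each counted once, 7.27% were at this threshold. None passed after adjustment. The log2 differences of the hosts ran from -0.34 to 0.37 with a median of -0.01, and those of the microRNA genes in them had a median of -0.13. In Mir5125 with Srrm2 and in Mir132 with 1700016P03Rik both the microRNA gene and its host were at this threshold, in the same direction.

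The 5 genes that overlap an exon of a same-strand gene lie there in part, and fragments of the microRNA gene and of its host were not separated. Their hosts were Hnrnpa3 (an RNA-binding protein), Stmn1 (a regulator of microtubules), the linker histone gene H1fx, Agfg1 (needed to form the acrosome of mouse sperm) and Ercc2 (a DNA helicase of repair and transcription). The most read of them, Gm24574 in Hnrnpa3, had 10, 33 and 34 fragments in the alcohol-FMT libraries, against 7, 26 and 14 in the control-FMT libraries, and the groups overlapped. None of the 5 was at an unadjusted p of 0.05 or less.

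MicroRNA families known from the testis and from development had few fragments in these libraries, at most 51 in a list. All 6 genes of the mir-34 and mir-449 families had fragments, 38 in all, 18 in the alcohol-FMT and 20 in the control-FMT libraries, but only Mir34b reached the minimum. Mir34b had 4, 4 and 5 fragments in the alcohol-FMT libraries, against 1, 2 and 5 in the control-FMT libraries. The groups overlapped, with a log2 difference of 0.58 ± 0.33 and an adjusted p of 0.757.

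The list of microRNAs known from the testis, from Sertoli cells or from Leydig cells had the most fragments of all lists, 51 on 8 of its 28 genes, with 25 in the alcohol-FMT and 26 in the control-FMT libraries. Its members at the minimum were Mir132 and Mir212. Of the remaining lists only mir-200 had genes at the minimum. The 66 microRNA genes of the X chromosome had 20 fragments, on 9 genes, with 6 in the alcohol-FMT and 14 in the control-FMT libraries. The let-7 and mir-98 genes had 2 fragments, the mir-17/92 cluster and its paralogs 2, mir-181 4, the Sfmbt2 intron cluster 4 on 3 of its 71 genes, and the imprinted Dlk1-Dio3 cluster 13 on 8 of its 57 genes. The mir-29, mir-30, mir-290 and mir-302 genes had no fragment, in a preparation that does not retain mature microRNAs.

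The genes that make and use microRNAs were read well and differed little between the groups. Of the 32 genes listed, 28 were tested, and 1 was at an unadjusted p of 0.05 or less, 0 higher and 1 lower (3.57%, against 7.27% of all genes tested). It was Tnrc6a, a scaffold protein that Argonaute recruits to silence messages, at 2.77 ± 0.175 FPKM in the alcohol-FMT group and 3.42 ± 0.324 FPKM in the control-FMT group (SD, n = 3 each), with a log2 difference of -0.23 ± 0.09 and an adjusted p of 0.682. Over the 28 genes the median was -0.08, the values ran from -0.23 to 0.12 and 18 were below 0. Over all genes tested the median was 0.01 and 47.5% were below 0. For Tnrc6a and Ago2 every alcohol-FMT library was below every control-FMT library, as it was for 5.33% of all genes tested.

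None of the core enzymes was at this threshold. Drosha, which cuts the primary hairpin, had 8.06 ± 0.4999 FPKM in the alcohol-FMT group and 8.04 ± 0.315 FPKM in the control-FMT group (SD, n = 3 each). Its partner Dgcr8 had 3.23 ± 0.235 FPKM in the alcohol-FMT group and 3.57 ± 0.348 FPKM in the control-FMT group. Dicer1, which cuts the exported hairpin, had 1.71 ± 0.290 FPKM in the alcohol-FMT group and 1.89 ± 0.124 FPKM in the control-FMT group. Ago2, the Argonaute that can cleave its targets, had 1.91 ± 0.115 FPKM in the alcohol-FMT group and 2.30 ± 0.142 FPKM in the control-FMT group, with an adjusted p of 0.689. The terminal uridylyl transferases Tut4 and Tut7, which tag precursors of let-7 and other hairpins, had log2 differences of -0.19 ± 0.09 and -0.15 ± 0.08, and Prkra, a partner of Dicer1, -0.15 ± 0.09.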

How the data were processed

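Testis RNA of 6 libraries was analysed (3 alcohol-FMT, 3 control-FMT). The deposited table holds FPKM per gene, which the authors computed from aligned reads; the methods name TopHat2, the submitters' notes HISAT2 2.0.5 with builds mm10 and mm8. Of the 54532 genes of the table, 53462 lie at the same coordinates in GENCODE M21 on GRCm38 (mm10), among them all 86 microRNA genes. Strand and multiply mapped reads are not described.

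FPKM times gene length was a whole multiple of a single step in each library (100% of values within 0.01), so fragments were recovered by division. The 15206 genes that averaged 1 FPKM or more entered limma 3.58.1 (R 4.3.3), with a mean-variance trend on log2(FPKM + 1), two-sided, with Benjamini-Hochberg adjustment over all of them; this scale understates the change of low genes. The script was tested on simulated data. Alternatives were limma-voom on the fragments, library totals for scaling, other filters, a pseudocount of 0.1 and leaving out each library. The subsets of features, genes without near copies and genes with at least 30 fragments, were added after the data had been seen. Hosts were assigned by coordinates and strand, near copies with BLAST 2.17.0 among GENCODE M21 transcripts; Python 3.11.15, pandas 2.3.3, NumPy 2.4.6, SciPy 1.17.1 and matplotlib 3.10.9 did the rest.

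The text names the 12 microRNA genes with most fragments, those at an unadjusted p of 0.05 or less (at most 12), the 3 nearest to the minimum on each side, up to 2 of each family list, Drosha, Dgcr8, Dicer1 and Ago2 with up to 4 others of the biogenesis list, and overlapping genes. Neighbours, identical copies, Mir7-1, Mir186 and Gm24574 were added with their values in view. The members and lists were chosen with earlier results of these data known.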

Additional observations from a re-analysis of the deposited data

How the results depend on the processing

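The count of 11 microRNA genes at an unadjusted p of 0.05 or less became 5 by limma-voom, 3 with a minimum of 10 fragments in 3 libraries, 26 with no filter and 4 among genes with at least 30 fragments (chosen after seeing the data), and 11 to 20 when each library was left out, 20 without alcohol-FMT library 18 and 19 without control-FMT library 16. The filter sets how many genes are fitted, and the fit with no filter took in all 423 microRNA genes with a fragment. No share over all genes is given for these alternatives, so a larger count among them does not mean a larger difference. The count after adjustment was 0, with 11 genes at the unadjusted threshold, and 0 to 1 with a library left out. The median log2 difference of -0.20 ran from -0.333 to 0.0627. With a minimum of 0.5 FPKM there were 132 genes in place of 86, and with 2 FPKM 57. The biogenesis count of 1 became 3 by limma-voom, 3 with library totals, 2 with the fragment filter and 0 to 4 with a library left out. For these counts, too, the share over all genes is not given. With a library left out the log2 difference ran from -1.12 to 0.0627 for Gm23935, -0.34 to 0.0471 for Mir7232, -0.13 to 0.28 for Gm23689, -0.13 to 0.10 for Mir468, -0.55 to 0.14 for Gm24752, -0.68 to 0.41 for Gm44349, -0.0468 to 0.26 for n-TSaga9, -0.72 to 0.0609 for Mir212, -0.0372 to 0.0425 for Drosha, -0.0835 to 0.15 for Dusp19 (opposite Mir684-1) and -0.0550 to 0.0839 for Ddx19b. Mir212 was at 0.39 with a pseudocount of 0.1, Drosha at -0.0234 and Ddx19b at -0.0143 with library totals. The cause of these changes was not tested. The difference in scaled fragments of all 86 genes, most of which lay on Gm23935, kept its sign. Without Gm23935 and library 18 the values were 54.7 and 51.7 in the alcohol-FMT libraries. They overlapped the control-FMT values of 52.3, 54.0 and 48.7. No paired analysis was possible because the groups share no replicate number. A total of 51 of the 86 genes had under 30 fragments, which limits what a difference in them can show.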
